A study of Mus musculus with 2 samples.

Results

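The 7 genes described here let the pancreatic beta cell read glucose and respond to incretin hormones. They were chosen by name as the glucose transporter gene Slc2a2, the glucose-6-phosphatase gene G6pc2, the KATP channel genes Abcc8 and Kcnj11, the incretin receptor genes Glp1r and Gipr, and the zinc transporter gene Slc30a8. They are 7 of 18193 genes on the array and were read by 9 probe sets. Abcc8 and Kcnj11 each had a pair of probe sets and the other genes had 1 each.

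RNA came from whole pancreas of 10-week-old male C57BL/6J offspring. In the threonine-deficient group, the dams had eaten a diet lacking sufficient threonine between embryonic days 12.5 and 14.5, and in the control group the dams had eaten control diet over the same days. All offspring were weaned at 3 weeks and then ate control diet, so no offspring was itself treated after birth. Each group was 1 pool of RNA on 1 array, so the values carry no replicate error and every difference is between 2 pools, with no p-value. The number of arrays limits the precision, and the labels do not say how many animals made up a pool.

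A beta cell takes up glucose through a membrane transporter and phosphorylates it, and the ATP made from it closes the KATP channel, which depolarises the cell and triggers insulin secretion. Incretins are gut hormones that raise cAMP through their receptors on the beta cell and so strengthen secretion when glucose is high. Beta cells are a small part of a pancreas that consists mostly of acinar cells, so in RNA of the whole organ fewer beta cells and less of a transcript in each beta cell cannot be told apart.

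Once signals below background were raised to it, Slc2a2 was the only one of the 7 genes at least 2-fold apart. It was lower in the threonine-deficient pool, where its signal was below background, so its difference is a bound. With background drawn higher, or added to every signal, it was less than 2-fold (log2 ratios of −0.14 and −0.74). Slc30a8 and G6pc2 were also lower in the threonine-deficient pool, by less than the Slc2a2 bound, and Glp1r was higher. The signals of Kcnj11 differed little. Abcc8 was barely above background, and on 1 array only, so like Slc2a2 it has only a bound. Gipr was above background on neither array and has no ratio.

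Background was set by a floor, a MAS5 signal of 264.9, taken as the 60th percentile of whichever array had the higher one. MAS5 signal is a linear intensity per probe set, scaled so that both arrays have the same trimmed mean. The floor was checked against 83 probe sets for olfactory, vomeronasal and bitter taste receptors, which a pancreas is not expected to use. Of these, 5 exceeded the floor on the threonine-deficient array and 3 on the control array, and 0 did on both, while 33.7% of all gene probe sets exceeded it on both. Of the 7 genes, 4 lay above the floor on both arrays (Glp1r, G6pc2, Slc30a8 and Kcnj11), 2 on 1 array (Slc2a2 on the control and Abcc8 on the threonine-deficient array) and 1 on neither (Gipr).

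**Figure D1:**
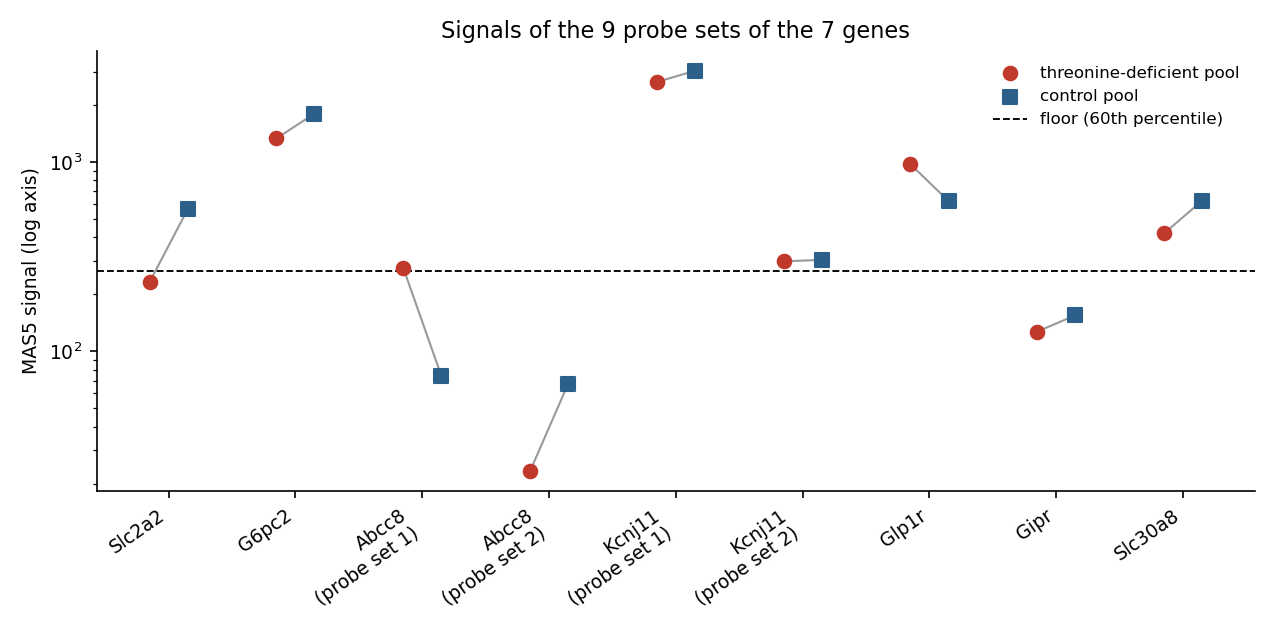
MAS5 signal, on a log axis, of each of the 9 probe sets in the threonine-deficient pool (circles) and the control pool (squares), with the floor of 264.9 as a dashed line. Points of 1 probe set are joined, and levels of different probe sets cannot be compared. Slc2a2 crosses the floor between the pools, both probe sets of Kcnj11 are nearly level, and Glp1r is the only gene above the floor on both arrays that is higher in the threonine-deficient pool.

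Log2 ratios are threonine-deficient over control, taken after signals below the floor were raised to it, and a ratio with 1 array at the floor is a lower bound on the difference. Of 10758 genes above the floor on at least 1 array, 138 (1.28%) were higher by 2-fold or more and 94 (0.874%) were lower by 2-fold or more in the threonine-deficient pool, which makes 2.16% at least 2-fold apart. With a loess trend of ratio on signal removed, that split was 100 higher and 128 lower. Among the 7 genes, 0 were higher and 1 was lower by that factor, of 6 above the floor. A single gene past the threshold does not set the 7 apart from the 2.16% of all genes.

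2 descriptions of error stand in for replicates. The local spread is a robust standard deviation (from the median absolute deviation) taken over the ratios of the 500 genes closest in signal. The probe set error is the standard deviation of the difference between the log2 ratios of a pair of probe sets of 1 gene, divided by the square root of the number in the pair, and covers probe and hybridisation noise only. It was 0.45 for 366 pairs with mean signals between the floor and 500, 0.43 for 554 pairs between 500 and 1000, 0.28 for 351 pairs between 1000 and 2000, and 0.20 for 578 pairs above 2000. Brighter probe sets therefore carry smaller errors, and of the 7 genes G6pc2 and, in its brighter probe set, Kcnj11 were read with the smallest.

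Glucose enters the mouse beta cell through the transporter encoded by Slc2a2, known as GLUT2, which carries glucose at high capacity and is also used by liver, kidney and intestine. Slc2a2 had a signal of 232.4 in the threonine-deficient pool and 562.8 in the control pool. The first lies below the floor and the second above it, so the threonine-deficient pool is recorded as not above background and the difference as at least 2.12-fold lower, a log2 ratio of −1.09 as a bound. The deposited signals without a floor give −1.28. The bound is 1.94 times the local spread of 0.56, and in this range of signal 4.69% of 2748 genes were at least 2-fold apart. None of the 83 receptor probe sets reached the Slc2a2 signal of the control pool, while 9 of them reached that of the threonine-deficient pool. The call depends on where background is drawn: with the floor at the 75th percentile (512.2) the bound was −0.14, and with the floor's value added to every signal as a pseudocount the log2 ratio was −0.74.

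G6pc2 encodes a glucose-6-phosphatase of the islet that turns glucose-6-phosphate back into glucose and so opposes the phosphorylating step. Its signal was 1333 in the threonine-deficient pool and 1804 in the control pool, both well above the floor. The log2 ratio was −0.44, or 1.35-fold lower, which is 1.58 times the local spread of 0.28 and did not reach the 2-fold threshold. G6pc3, the related phosphatase that most tissues use, had signals of 810.9 in the threonine-deficient and 1162 in the control pool (log2 ratio −0.52). Slc37a4, which carries glucose-6-phosphate into the endoplasmic reticulum where these enzymes act, had 631.9 in the threonine-deficient and 894.2 in the control pool (−0.50). Both are read in many cell types of the organ, and the liver enzyme gene G6pc was above the floor on neither array.

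The KATP channel is built from a pore, encoded by Kcnj11, and a regulatory subunit that binds sulfonylurea drugs, encoded by Abcc8. These genes lie next to each other in the mouse genome. The brighter probe set of Kcnj11 had a signal of 2648 in the threonine-deficient and 3036 in the control pool, a log2 ratio of −0.20 that is 0.94 times the local spread of 0.21. Its dimmer probe set had 298.7 in the threonine-deficient and 304.2 in the control pool, a log2 ratio of −0.03. The pair of readings differed by 0.17, and neither ratio exceeded the probe set error of its signal range. For the brighter probe set the margin was narrow, a ratio of −0.197 beside an error of 0.198. Taken from the median absolute deviation, that error was 0.146, which the ratio exceeded in size.

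Abcc8 had no reading above the floor on both arrays. Its brighter probe set had a signal of 276.1 in the threonine-deficient and 74.3 in the control pool, which is at least 1.04-fold higher, a bound of 0.06 on the log2 scale. Its other probe set had 23.3 in the threonine-deficient and 67.3 in the control pool, below the floor on both arrays. Without a floor the brighter probe set gave a log2 ratio of 1.89 and the other one −1.53, which are opposite directions for the same gene. On the control array, 41 of the 83 receptor probe sets were at least as bright as the brighter Abcc8 probe set. These values bound what the probe sets read and do not show that the channel subunit was absent from the tissue.

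The other pairing of this channel family, which serves smooth muscle and other tissues, is encoded by Kcnj8 and Abcc9. Kcnj8 had 234.0 in the threonine-deficient and 154.2 in the control pool, below the floor on both arrays. Abcc9 had 650.8 in the threonine-deficient and 722.5 in the control pool in its brightest probe set, a log2 ratio of −0.15.

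Glp1r and Gipr encode the receptors for the incretins glucagon-like peptide 1 and glucose-dependent insulinotropic polypeptide. Glp1r had a signal of 973.4 in the threonine-deficient and 622.4 in the control pool, a log2 ratio of 0.65 or 1.56-fold higher. This is 1.81 times the local spread of 0.36 and below the 2-fold threshold, and 0 of the 83 receptor probe sets were as bright on either array. Gipr had 127.1 in the threonine-deficient and 155.0 in the control pool, below the floor on both arrays, and at least as bright were 23 of the receptor probe sets on the threonine-deficient array and 20 on the control array. No ratio is given for Gipr. Neither incretin receptor had a second probe set to check its reading.

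Slc30a8 encodes ZnT8, the transporter that loads zinc into insulin granules, where insulin is stored with it. Its signal was 419.7 in the threonine-deficient and 624.8 in the control pool, a log2 ratio of −0.57 or 1.49-fold lower. This is 1.11 times the local spread of 0.52. The threonine-deficient signal was 1.58 times the floor. With the floor at the 75th percentile only the control signal exceeded it, and the bound was −0.29.

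**Figure D2:**
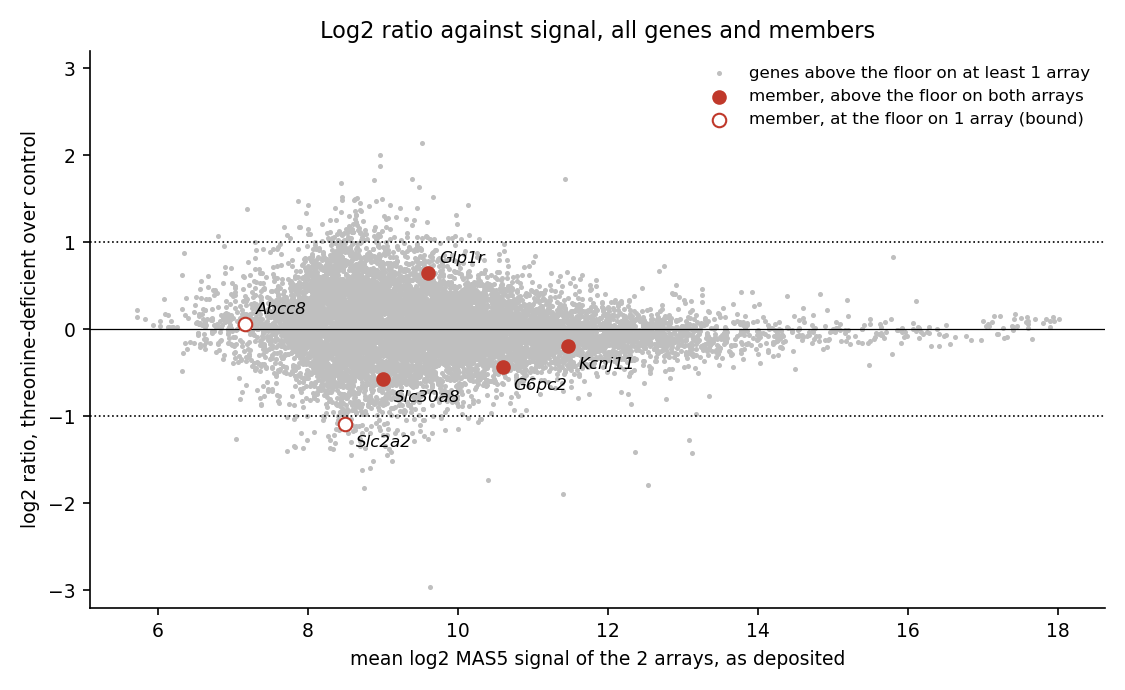
Log2 ratio, threonine-deficient over control, against mean log2 signal of the deposited values for the 10758 genes above the floor on at least 1 array (grey), with the 6 members among them in red, filled where both arrays were above the floor and open where 1 was at the floor. Dotted lines mark 2-fold. Of the members, only Slc2a2 lies beyond a dotted line, and the cloud of all genes narrows at high signal, where Kcnj11 and G6pc2 sit.

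Of the 4 genes above the floor on both arrays, 3 were negative and 1 positive, and 52.0% of all such genes were negative. Their median log2 ratio was −0.32, beside −0.02 over all genes above the floor on both arrays. The bounds of Slc2a2 and Abcc8 are left out of these counts, since a gene at the floor on 1 array has its direction fixed by which array that is. The 4 ratios ranged from −0.57 for Slc30a8 to 0.65 for Glp1r, a range of 1.22. The difference between G6pc2 and Slc30a8 was 0.14 and that between G6pc2 and Kcnj11 was −0.24, each below the local spread of G6pc2, so the ratio of G6pc2 is not resolved from either.

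Promoter sequence was available for 3 of the 7 genes in the RefSeq table of build GRCm38.p6. These are Slc2a2, G6pc2 and Glp1r, among them the 2 genes with the most negative and the most positive ratio. The 250 bases before each annotated start site are printed 5′ to 3′ on the plus strand, which is the strand of each gene, and G6pc2 has 2 start sites. Capitals mark matches, on either strand, to CCAAT (the CCAAT box), GGGCGG (the GC box), CAGATG (an E-box of the kind that NEUROD1 binds), TATAAA (the TATA box), TAATTA (a homeodomain core), TGACGTCA and its shorter form TGACG (the cAMP response element), TGTTTAC (a FOXA type site) or GTTAAT (part of an HNF1 site). The short form TGACG lies inside TGACGTCA, so these 2 overlap.
Slc2a2, chr3:28697653-28697902: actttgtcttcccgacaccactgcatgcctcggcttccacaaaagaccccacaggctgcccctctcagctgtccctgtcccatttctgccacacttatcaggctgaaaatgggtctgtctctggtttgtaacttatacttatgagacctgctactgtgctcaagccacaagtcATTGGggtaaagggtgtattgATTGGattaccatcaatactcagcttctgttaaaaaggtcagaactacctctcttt
G6pc2, first start site, chr2:69210823-69211072: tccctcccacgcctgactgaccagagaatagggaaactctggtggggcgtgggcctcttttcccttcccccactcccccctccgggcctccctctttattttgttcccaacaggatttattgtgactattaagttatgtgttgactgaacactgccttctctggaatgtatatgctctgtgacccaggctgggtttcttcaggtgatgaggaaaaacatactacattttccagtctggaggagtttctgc
G6pc2, second start site, chr2:69219699-69219948: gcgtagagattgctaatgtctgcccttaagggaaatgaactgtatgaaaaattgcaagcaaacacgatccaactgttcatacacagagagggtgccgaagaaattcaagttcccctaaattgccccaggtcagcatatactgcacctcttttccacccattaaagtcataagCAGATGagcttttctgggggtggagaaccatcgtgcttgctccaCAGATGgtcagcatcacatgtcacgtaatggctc
Glp1r, chr17:30901617-30901866: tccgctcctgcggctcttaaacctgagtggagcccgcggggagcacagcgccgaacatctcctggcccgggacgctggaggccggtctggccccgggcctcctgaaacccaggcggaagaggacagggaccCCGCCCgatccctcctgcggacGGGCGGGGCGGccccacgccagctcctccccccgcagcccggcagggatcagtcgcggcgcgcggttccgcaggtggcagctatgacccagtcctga

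The Slc2a2 window held 2 CCAAT boxes on the minus strand, at −77 and −56 from the start site, a motif found in 33.8% of 32851 windows of the same length. The second G6pc2 window held 2 E-boxes, at −78 and −34, a motif found in 14.4% of windows. The first G6pc2 window held no match. The Glp1r window held 3 GC boxes, the plus-strand pair at −97 and −92 overlapping by a base, and GC boxes were found in 32.7% of windows. The Glp1r window had a GC content of 73.2% and 26 CpG dinucleotides, the Slc2a2 window had 47.2% and 2, and the medians over all windows were 52.4% and 6. The TATA box was in 12.4% of windows, the homeodomain core in 4.84%, the cAMP response element in 1.55%, its shorter form in 17.8%, the FOXA type site in 3.17% and the partial HNF1 site in 6.43%. A match describes the letters and was not tested as a binding site.

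The rest of the pathway was read from 14 gene lists with the 7 genes left out. They name 188 genes, of which 166 were measured and 112 exceeded the floor on 1 array or both. Of these, 1 was higher and 2 were lower by 2-fold or more, 2.68% beside the background of 2.16%. Of the 91 above the floor on both arrays, 60 were negative and 31 positive, with a median of −0.11. The higher gene was Hk3, a hexokinase of myeloid cells, with 1183 in the threonine-deficient and 503.9 in the control pool (log2 ratio 1.23). Its other probe set had 76.4 in the threonine-deficient and 258.5 in the control pool, below the floor on both arrays. The lower genes were Me1, the cytosolic malic enzyme, with 439.7 in the threonine-deficient and 908.0 in the control pool (−1.05, but −0.39 in its other probe set), and Crhr1, a corticotropin-releasing hormone receptor, with 208.4 in the threonine-deficient and 546.4 in the control pool (at least 2.06-fold lower). Crhr1, and likewise G6pc, Nkx6-1 and Dbh, lie outside the rule for naming genes and were named after their values were seen.

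Close relatives of the 7 genes did not share 1 direction. The 4 other glucose transporters above the floor had log2 ratios from −0.28 for Slc2a8 to 0.23 for Slc2a1, whose other probe sets gave −0.36 and −0.13. Of 19 other genes of zinc transport and storage above the floor, 17 were so on both arrays, with 9 positive and 8 negative, and 0 of the 19 were 2-fold apart. Of the 5 other potassium channel genes above the floor, 2 were so only on the threonine-deficient array and have bounds. The other 3 were Kcnq1 at 0.39, Kcnj6 at 0.52 and Abcc9 at −0.15. The Kcnj6 control signal of 269.9 was barely above the floor, and its other probe sets lay below it on both arrays. Of the 4 other class B receptors above the floor, the family of Glp1r, 2 were so only on the control array, so their bounds could only be negative. The 2 above it on both arrays were Calcrl, part of the adrenomedullin receptor, at −0.14, and Vipr2. Vipr2, a receptor for vasoactive intestinal peptide, had 294.5 in the threonine-deficient and 461.8 in the control pool (−0.65). Gcgr, the glucagon receptor gene, lay below the floor on both arrays.

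Upstream and downstream of the incretin receptors, Gip, the gene of 1 incretin, was above the floor on neither array, and Gcg, whose product includes glucagon-like peptide 1, had 17753 in the threonine-deficient and 21772 in the control pool (−0.29). Dpp4, the protease that inactivates incretins, had 366.7 in the threonine-deficient and 266.3 in the control pool (0.46). That control signal was barely above the floor, and the other Dpp4 probe sets lay below the floor on both arrays. Of 22 genes of cAMP signalling above the floor, 0 were 2-fold apart, and the 18 above it on both arrays had a median of −0.26, with 12 negative and 6 positive. Adcy5, an adenylyl cyclase of the beta cell, had 467.6 in the threonine-deficient and 801.2 in the control pool in its brightest probe set (−0.78). Another Adcy5 probe set was above the floor on the control array only (a bound of −0.27), and the rest were below it on both arrays. The 10 genes that couple mitochondria to secretion were all negative in their brightest probe sets, with a median of −0.19. Of all genes above the floor on both arrays, 52.0% were negative, with a median of −0.02. Idh1, at −0.33, gave 0.01 in its other probe set.

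Islet hormone and secretory granule genes had mostly negative ratios alongside Slc2a2, Slc30a8 and G6pc2, while related lists were mixed. Among other beta cell surface genes, with the 7 left out, 3 ratios were positive and 3 negative, bounds included (median 0.05). The granule exocytosis list had 4 positive and 6 negative ratios (median −0.09). All 6 islet hormone genes above the floor were negative, with a median of −0.35. The 7 measured hormone genes, 1 of them below the floor, summed to 142779 in the threonine-deficient and 173659 in the control pool. Among them, Ins2 (insulin) had 81745 in the threonine-deficient and 93733 in the control pool (−0.20). Of 10 genes of the secretory granule above the floor, 3 were so only on the control array, and their bounds could only be negative. The 7 above it on both arrays had a median of −0.23, with 6 negative and 1 positive. Slc30a8 and G6pc2, at −0.57 and −0.44, lie within the range from −0.92 to 0.08 that the hormone and granule genes above the floor on both arrays span, and Glp1r, at 0.65, lies above it. The low end of that range is the hormone gene Sst alone. The next lowest is the granule gene Ptprn at −0.56, so Slc30a8 lies below all of these genes except Sst. Whether islet content set these ratios was not tested.

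Of the regulators of beta cell genes, Pdx1 had 389.7 in the threonine-deficient and 330.6 in the control pool (0.24), and its other probe set was below the floor on both arrays. Foxa2 had 947.0 in the threonine-deficient and 1386 in the control pool (−0.55). Of 6 islet transcription factors above the floor, 3 were so on both arrays, with Hnf4a at 0.18 in its brightest probe set beside Pdx1 and Foxa2, and the other 3 have bounds. Other Hnf4a probe sets gave 0.03 and, above the floor on the control array only, bounds of −0.25 and −0.35. Nkx6-1, a defining factor of the adult beta cell, was below the floor on both arrays.

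Markers of other cells and tissues that could carry these transcripts were also read. The arrays held pancreas as labelled: 13 of 13 measured acinar markers were above the floor on both arrays, with a summed signal of 1869966 in the threonine-deficient and 1742411 in the control pool and a median log2 ratio of 0.12. Of 11 measured markers of liver, kidney and intestine, where Slc2a2 is also used, 3 were above the floor. The summed signal of all 11, those below the floor included, was 13306 in the threonine-deficient and 14953 in the control pool. Of this, Ttr, which islets also make, gave 11538 in the threonine-deficient and 13714 in the control pool. Alb, the albumin gene, had 320.2 in the threonine-deficient and 279.2 in the control pool. Of 10 measured neuron and nerve markers 2 were above the floor, and all 10 summed to 3269 in the threonine-deficient and 2008 in the control pool. Of this, Dbh gave 871.9 in the threonine-deficient and 252.4 in the control pool, the latter below the floor. Rbfox3 gave 1650 in the threonine-deficient and 1201 in the control pool, and its other probe sets lay below the floor on both arrays. Of 10 measured muscle markers 3 were above the floor, and all 10 summed to 3711 in the threonine-deficient and 3704 in the control pool. Adipocyte markers had the lowest median of these lists, −0.98 over the 7 above the floor and also over the 5 above it on both arrays. All 8 measured adipocyte markers summed to 23505 in the threonine-deficient and 42856 in the control pool. When each gene was read as the median of its probe sets, the adipocyte median was −0.57. Duct markers had a median of 0.56 over the 6 above the floor, which was 0.30 with the floor at the 50th or 75th percentile. All 8 measured duct markers summed to 23299 in the threonine-deficient and 22812 in the control pool. The part of any of these in the ratios of the 7 genes was not tested.

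**Figure D3:**
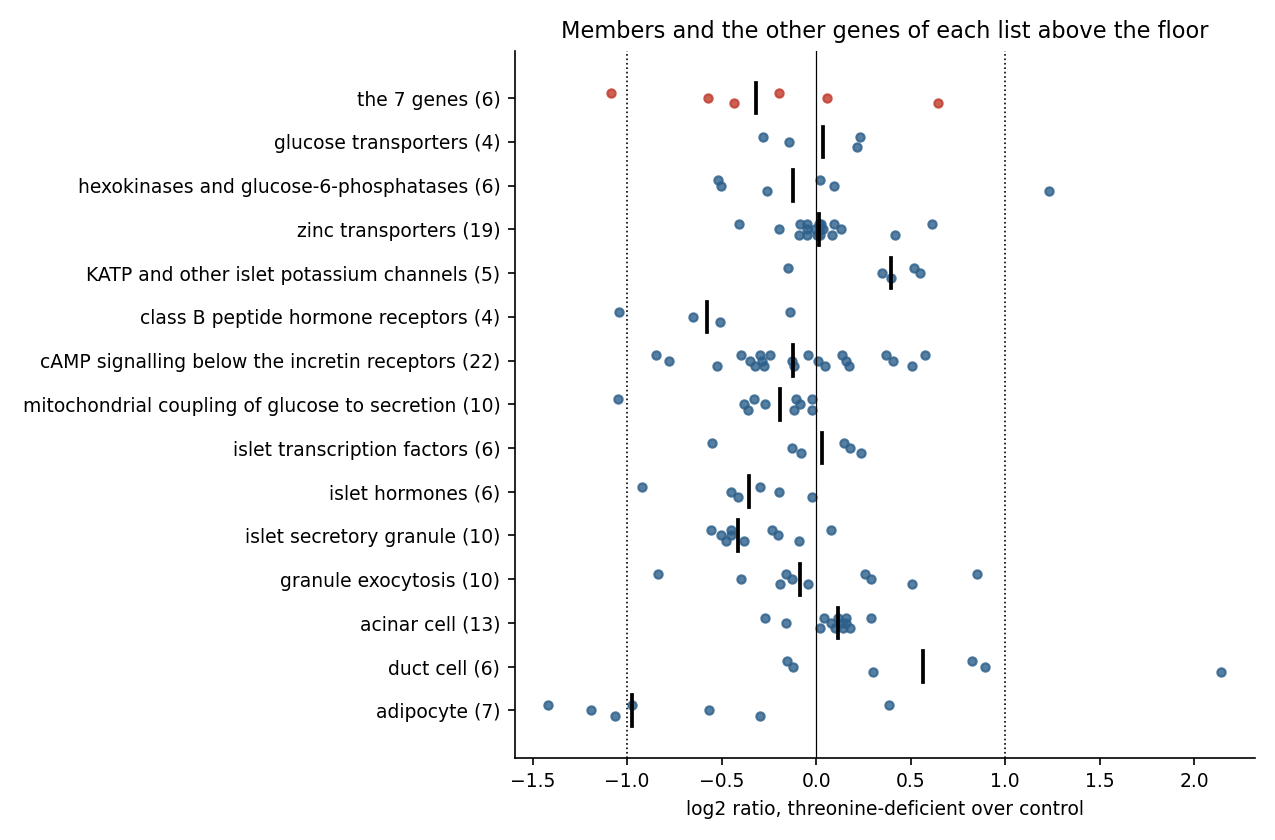
Log2 ratio, threonine-deficient over control, of the 6 members above the floor on at least 1 array (top row) and of the other such genes of 11 pathway lists and the acinar, duct and adipocyte lists, with the number of genes in brackets. Each point is a gene, bounds included, black bars are medians and dotted lines mark 2-fold. The members spread from −1.09 to 0.65, the islet hormones lie at or below −0.02, and the adipocyte list has the lowest median, −0.98.

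**Figure D4:**
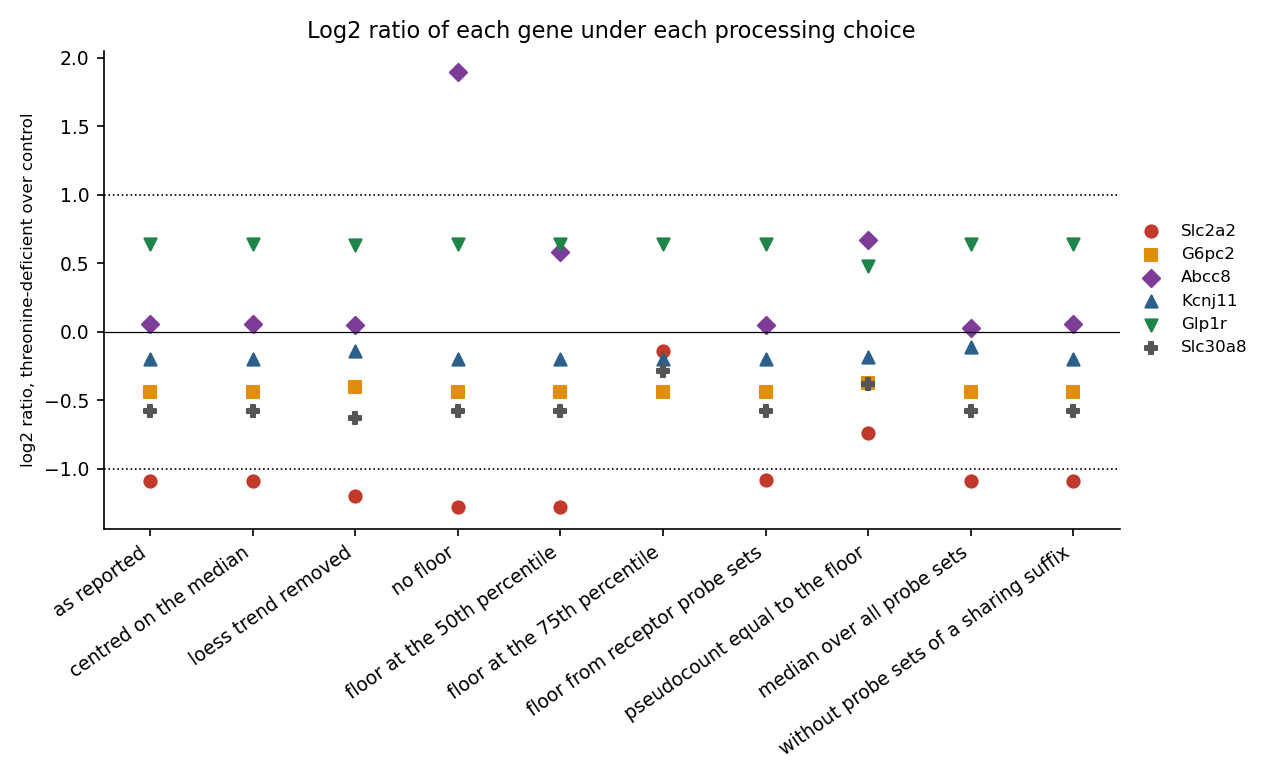
Log2 ratio of the 6 members above the floor on at least 1 array, as reported and under each of 9 processing choices, with dotted lines at 2-fold. Glp1r stays between 0.48 and 0.65 and G6pc2 between −0.44 and −0.37, while Abcc8 ranges from 0.03 to 1.89 and Slc2a2 from −1.28 to −0.14 with the treatment of low signals. For Glp1r and G6pc2, only centring, loess and the pseudocount could change the value. Abcc8 has no point with the floor at the 75th percentile, where it lay below it on both arrays.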

How the data were processed

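Signals were measured with Affymetrix mouse expression arrays in 1 pooled RNA per group. The deposited values are linear signal intensities that the authors made with the MAS5 algorithm, as the submitters' processing notes state without a version. After 2% was trimmed at each end, both arrays had a mean of 500.0, so a difference in total mRNA could not be seen. Of 45037 probe sets for genes, 34945 carried 1 symbol, and 34741 of these matched RefSeq (GRCm38.p6) by gene identifier. No build is named for the array values.

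From there, the brightest probe set by mean log2 signal stood for each gene. Signals under the floor (60th percentile) were raised to it, and ratios were taken on the log2 scale. No test was possible with 1 array per group, and "called" means at least 2-fold. The members and gene lists were chosen with earlier results of these data known. Named were all members, up to 4 genes of each list with the largest absolute ratio above the floor on both arrays, and Pdx1, Ins2, Gcg, Kcnj8, Abcc9, Slc2a1, G6pc3, Gcgr, Gip and Dpp4. Not every gene that the rule gave is described. With 2 arrays, likeness of pattern between genes could not be measured. The 9 alternatives were centring on the median, loess (span 0.3), omitting the floor, a floor at the 50th, at the 75th and at the 95th percentile (the last of the receptor probe sets only), a pseudocount, the median over probe sets, and leaving out probe sets that end in _s_at, _x_at or _a_at. Calling was tried on simulated data with large changes in bright genes only, which cannot show how it does near the floor or near 2-fold. Python 3.11.15, pandas 2.3.3 and statsmodels 0.14.6 were used.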

Additional observations from a re-analysis of the deposited data

How the results depend on the processing

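No paired analysis was possible because each group is 1 pool on 1 array. The median over the members, bounds included, stayed between −0.32 and −0.20 under the 9 alternatives, and 5 or 6 members lay above the floor wherever a floor was set. Without a floor 2 members were at least 2-fold apart (Slc2a2 and Abcc8), and with the floor at the 75th percentile, or with a pseudocount, 0 were. These settings differ only in how low signals enter, which is where Slc2a2 and Abcc8 lie. The counts over all genes moved likewise. Without a floor, among the same genes, 659 were at least 2-fold higher and 388 lower. The floor at the 50th percentile gave 341 and 206, that at the 75th 23 and 23, the pseudocount 86 and 52, and the median over probe sets 84 and 48. Glp1r, G6pc2, Kcnj11 and Slc30a8 each moved by less than their local spread under all 9 alternatives and kept their direction. Glp1r and G6pc2 have 1 probe set each, above every floor used, so only centring, loess and the pseudocount could change their ratios. Their steadiness under the other alternatives was fixed in advance. Slc2a2 moved by more under 1 (the floor at the 75th percentile) and Abcc8 under 3 of the 8 that gave it a value. Of 15 gene lists with at least 4 genes above the floor besides the members, 5 kept their median within its limit under all 9 alternatives (the acinar, islet hormone, mitochondrial coupling, other beta cell surface and zinc lists). That limit is the robust spread of all genes divided by the square root of the list's size. Over all 135 pairs of list and alternative, 29 medians lay outside it. Besides the values in the report, the medians ranged from −0.46 to −0.17 for the granule list, −0.86 to −0.09 for class B receptors, 0.12 to 0.52 for potassium channels and 0.30 to 0.83 for duct markers. The cAMP median, bounds included, was −0.12 and ranged from −0.27 to 0. Medians took both signs for granule exocytosis (−0.09 to 0.17), islet transcription factors (−0.18 to 0.19) and glucose transporters (−0.14 to 0.22). So did that of other beta cell surface genes (−0.01 to 0.12). Gipr has no ratio under any setting with a floor. Signal over background limits Abcc8, Gipr and the lower reading of Slc2a2.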
